A study of Mus musculus with 4 samples.

Results

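PPARγ-bound regions that lie in exons or at transcript ends, away from promoters, were examined in alveolar macrophages (AMs), the resident macrophages of the lung airspace. Regions were obtained by merging the peaks of both ChIP libraries wherever they overlapped by at least 1 bp and keeping merged regions with peaks from both, called consensus regions here. A region was taken where its centre lay more than 1 kb from every annotated transcription start site (TSS) and fell in a transcript-end window (100 bp before to 1000 bp after the last base of a transcript), in a coding exon, or in a 5' or 3' untranslated region (UTR) of a protein-coding transcript. Transcripts were the curated RefSeq set, and a centre that met several definitions was placed in the first that applied, in that order. Of 20233 consensus regions, 665 met the rule, or 3.29% (95% Wilson interval 3.05% to 3.54%). Of these, 307 lay at transcript ends, 126 in coding exons, 15 in 5' UTRs and 217 in 3' UTRs. The same rule applied to the peaks of library 1 alone gave 3621 and to those of library 2 alone 1029.

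The series holds 2 HT-ChIPmentation libraries made with an antibody to PPARγ (replicates 1 and 2, called library 1 and library 2) and 2 input libraries, all from AMs of WT mice without treatment. HT-ChIPmentation is chromatin immunoprecipitation with sequencing adapters added by a transposase, so that small cell numbers suffice. The labels give 200000 cells per aliquot and do not say whether the libraries came from separate animals. The inputs served the authors as the background for peak calling and are not analysed here.

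PPARγ is a nuclear receptor activated by fatty acids and their derivatives. It binds DNA as a heterodimer with RXR, typically at a DR1 element, a direct repeat of the half-site AGGTCA with 1 base between the repeats. In AMs it is induced by GM-CSF and is known for the control of lipid handling and of AM identity, together with macrophage factors such as PU.1 and C/EBP proteins. A centre in an exon or UTR refers to the DNA at that position, since the assay does not measure RNA.

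No region of the 665 held a perfect DR1 element in the window reaching 100 bp to either side of the library 1 summit, the position of highest enrichment of its highest peak. Both strands were searched, and a window without a match says only that these letters are not in it. The share over all consensus regions was 0.0643% (13 of 20233). A count of 0 of 665 allows a share of up to 0.451%. Searched over their whole length, 728 kb in all, the 665 regions again held none. Of all 20233 consensus regions 48 held one, or 0.237%. This share lies below the limit of 0.451%, so no lack of DR1 is read from the count of 0. With 1 mismatch among the 12 half-site bases, 8 of 665 regions carried a DR1, or 1.2% (0.611% to 2.36%), against 0.786% of all consensus regions. Around the library 2 summits the count was 5. With the rule applied to the peaks of 1 library alone, the share was 0.486% (library 2) and 0.470% (library 1). The share over all regions of 1 library was not computed, so these values cannot be ordered against a matching background. The 8 elements are printed because they are the closest matches to the receptor's own element in these regions. Each is written 5′ to 3′ on the strand of the repeat, with the element in capitals and 8 bases on either side, from RefSeq's GRCm38 genome (mm10). Gm11963 is on the plus strand and the others are on the minus strand, and the coordinates given for each cover the printed run.
Pwwp3a: cagcttctAGGACACAGGTCAattcagag
Ctdsp1: atgtgaggAGGTCAGAGGACAacttgtgg
Msrb1: ctcctcaaAGGTCACGGGTCAtcaccacc
Gm11963: cccagaagAGGTCAATGGTCAcagaatcg
Neu1: gttgcaaaAGGTCAGAGTTCAgaggaaga
B430306N03Rik: tgcagtgcAGGTCAAAGTTCAcaagcaca
Usp37: gagaccagAGGGCAAAGGTCAcagtcttc
Zfp128: tccttaggAAGTCAGAGGTCAatactgat

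Of these, the element of Neu1, the lysosomal sialidase, lay exactly at the library 1 summit in the 3' UTR (chr17:34934915-34934943). Its region had a fold enrichment over input of 7.70 in library 1 and 4.52 in library 2. The elements of Msrb1, a methionine sulfoxide reductase (chr17:24742423-24742451), and of Zfp128, a zinc-finger gene (chr7:12891511-12891539), also lay in 3' UTRs, 18 bp and 14 bp from the summit. Those of Ctdsp1, a phosphatase of the RNA polymerase II tail (chr1:74397179-74397207), and Usp37, a deubiquitinase (chr1:74434843-74434871), lay at transcript ends. The regions of Pwwp3a (chr10:80228203-80228231) and B430306N03Rik (chr17:48322529-48322557) were placed in coding exons by their centres, but the elements themselves lay in introns. The element of Gm11963 (chr11:5505999-5506027) lay in an exon of this noncoding transcript. The 8 regions ranged from 4.80 to 10.4 in library 1 fold enrichment, and the best-ranked of them, Pwwp3a, stood 166th among the 665.

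PU.1, the lineage factor of macrophages, binds purine-rich elements with a GGAA core. The element GAGGAAGT was found around 37 of the 665 summits, or 5.56% (4.06% to 7.57%), against 6.83% of all consensus regions. In windows of the same length 1 kb to the left and 1 kb to the right of the 665 summits the shares were 1.35% and 1.65%. With regions of library 2 alone the share at the summits was 3.98%, and with those of library 1 alone 3.65%. Examples from each of the 3 larger classes, chosen after their values were seen because they lie in genes of macrophage function, are given with the element in capitals, Cebpd on the plus strand and the others on the minus strand.
Mpeg1, 3' UTR: agttttaggGAGGAAGTactatgtaa
Itgax, coding exon: aagttacagGAGGAAGTggtgggaaa
Cebpd, transcript end: caatatgcaGAGGAAGTactgctctt

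In Mpeg1, which encodes the pore-forming protein perforin-2 of macrophages, the element (chr19:12464368-12464393) lay 52 bp from the library 1 summit. In Itgax, which encodes the integrin CD11c (chr7:128133832-128133857), it lay 35 bp from the summit. In Cebpd, a C/EBP family transcription factor (chr16:15890059-15890084), it lay 16 bp from the summit. The Itgax centre fell in the last exon of a short curated transcript and in an intron of the full-length one, whereas both summits lay in an exon of both.

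Per unit of sequence, the classes ran from 4.21 to 21.2 regions per Mb. Regions were found at 11.5 per Mb of transcript-end sequence (95% Poisson interval 10.3 to 12.9), 4.21 per Mb of coding exon (3.51 to 5.02), 21.2 per Mb of 5' UTR (11.9 to 35.0) and 9.82 per Mb of 3' UTR (8.55 to 11.2). Introns held 8.89 per Mb (8.70 to 9.08), intergenic sequence 4.08 per Mb (3.97 to 4.18), and sequence within 1 kb of a TSS 95.2 per Mb. Coding exons thus lay near the intergenic density, and their interval did not reach that of introns, 3' UTRs or transcript ends. The 5' UTR value rests on 15 regions in 0.708 Mb. These intervals cover counting error only, and the differences were not tested. The 4 classes together took up 3.10% of the sequence and held 3.29% of the regions.

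**Figure D1:**
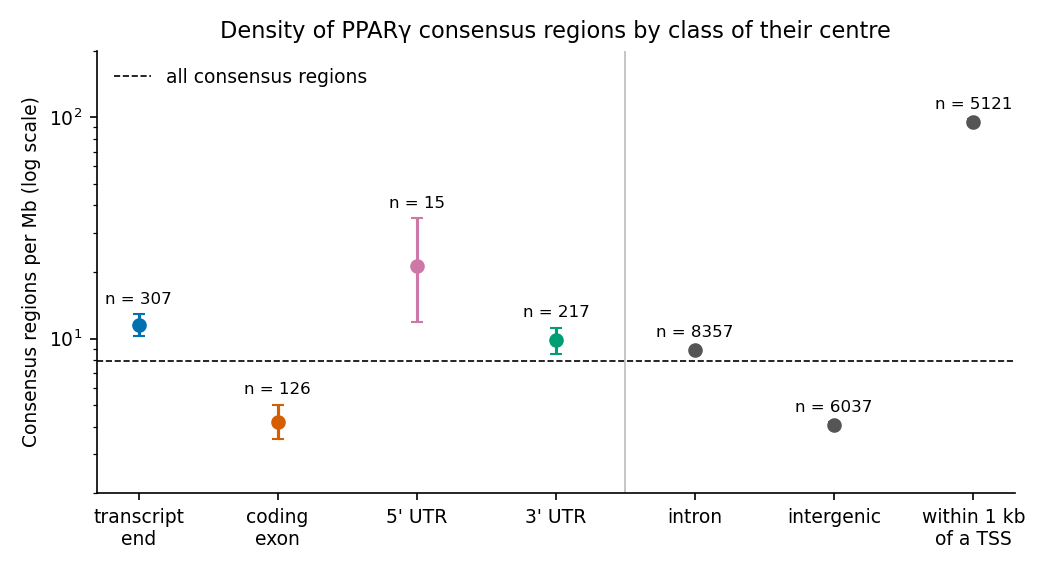
Consensus regions per Mb of sequence (log scale) for the 4 classes of interest on the left and for introns, intergenic sequence and sequence within 1 kb of a TSS on the right. Points are counts over sequence length, bars are 95% Poisson intervals and the dashed line marks all consensus regions (7.91 per Mb). Coding exons (4.21 per Mb) sit beside intergenic sequence (4.08 per Mb), and promoter-proximal sequence is far above every class.

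The 1 kb limit decided many placements. A further 865 regions had centres in the same kinds of sequence but within 1 kb of a TSS and were left out. Among the 665, 205 lay between 1 and 3 kb from a TSS, and 460 (69.2%) lay farther away. The closest on the inside were a transcript-end region of Rnu3b2, 1001 bp from a TSS, with fold enrichments of 8.29 and 4.24 in libraries 1 and 2, and a coding-exon region of Gadd45g, 1002 bp from a TSS, with 13.3 and 10.7. The closest on the outside were a coding-exon region of Hcar2, at 987 bp, with 19.3 and 11.5, and a transcript-end region of Gm10910, at 982 bp, with 6.22 and 5.35.

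Fold enrichment is the authors' ratio of ChIP over input signal at a peak summit, and for each region and library the value of its highest peak was taken. The median over the 665 regions was 6.52 in library 1 and 5.09 in library 2, against 6.81 and 5.35 over all consensus regions. Regions centred in introns had medians of 6.52 and 5.35, and intergenic ones 6.81 and 5.35. By class, the library 1 medians were 6.81 for transcript ends, 6.52 for coding exons, 5.63 for 5' UTRs and 6.22 for 3' UTRs. In library 2 they were 5.35, 5.07, 5.63 and 5.07 for the same classes. A value of at least 5 in both libraries was reached by 323 of the 665 (48.6%, 44.8% to 52.4%), against 52.9% of all consensus regions. The share over all includes regions within 1 kb of a TSS (58.6%), which the rule leaves out. It was 49.9% for regions centred in introns, inside the interval of the 665, and 52.8% for intergenic ones. The interquartile range over the 665, 5.04 to 8.73 in library 1, was wide compared with any gap between class medians. Across the 665 regions the libraries gave a Spearman correlation of 0.54 and a Pearson correlation of log2 values of 0.63. This is a description across regions that share both libraries, and regions are not independent replicates.

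**Figure D2:**
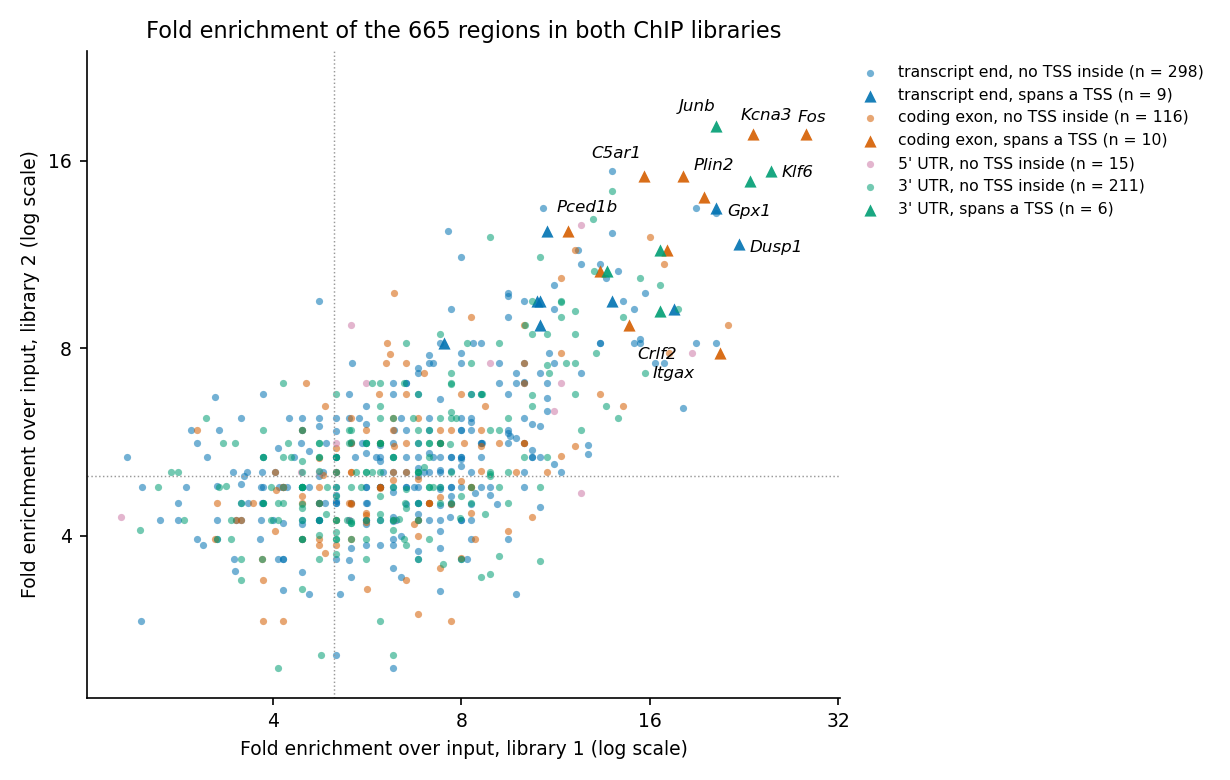
Fold enrichment over input in library 1 (x axis) and library 2 (y axis), both on log scales, with 1 point per region. Colors give the class, triangles mark the 25 regions that contain a TSS, and dotted lines mark a fold of 5. The triangles sit at the upper right, with Fos at 28.4 and 17.6, whereas the other 640 regions spread around medians of 6.48 and 5.07.

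The highest values came from a small set of very wide regions, as they did among all consensus regions. Regions of 3 kb or more had medians of 14.5 and 11.1 in libraries 1 and 2 among the 665 (n = 38), and 15.1 and 10.9 among all consensus regions (n = 528). Regions were ranked among all 20233 by the lower of their percentiles in both libraries. A TSS lay inside 25 of the 665 regions (3.76%) even though their centres were more than 1 kb from it, against 16.0% of all consensus regions. Most such regions lay within 1 kb of a TSS, which the rule leaves out, and among regions centred in introns and intergenic sequence the shares were 1.14% and 0.464%. These 25 had a median width of 6545 bp, and the other 640 had one of 644.5 bp. A region with a TSS inside but its centre more than 1 kb away is necessarily wide, here at least 2299 bp. The gap in width therefore follows from this selection. Their median fold enrichments were 16.6 and 11.5 in libraries 1 and 2, with 6.48 and 5.07 for the other 640. Members narrower than 500 bp had medians of 4.77 and 4.52, and a part of the TSS apart from width was not tested. In all, 21 of the 25 were in the top 10% of all consensus regions by rank. Regions that contained a TSS were high elsewhere as well, where the same selection for width applied. Medians were 14.2 and 10.1 for the 95 centred in introns and 15.3 and 10.1 for the 28 in intergenic sequence. Of the 25, 19 covered their host transcript from end to end. In the 25 regions, the library 1 summit lay in one of the 4 classes in 8, within 1 kb of a TSS in 11, and in introns or intergenic sequence in 6. For these wide regions the class gives the middle of a broad domain, which in most of them was not where the highest summit lay. Without them, 51 of 640 regions (7.97%) were in the top 10%, whereas with them 72 of 665 (10.8%) were.

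The AP-1 genes Fos, Jun, Junb and Jund belonged to this set. Fos, a subunit of the AP-1 transcription factor, ranked 26th of all consensus regions, with 28.4 and 17.6 in libraries 1 and 2. Its region (chr12:85471264-85481345) was 10082 bp wide and covered the whole gene, and its centre lay in the coding part of exon 4. The library 1 summit lay 4477 bp after the Fos TSS, beyond the end of the transcript, and the library 2 summit lay 3124 bp after it, in the 3' UTR. Junb, another AP-1 subunit, had 20.4 and 18.2, with its centre in the 3' UTR. The single-exon gene Jun had 15.7 and 15.1, with its centre in the coding sequence, and Jund had 16.6 and 9.18, with its centre in the 3' UTR. All 4 regions covered the whole transcript. Egr1, an immediate early zinc-finger factor, had 11.8 and 12.3, with its centre in exon 2 of 2.

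Klf6, a Krüppel-like transcription factor, had the widest region of all 665, at 17863 bp (chr13:5859010-5876872), with 24.97 and 15.4. Its centre lay in the 3' UTR, but both summits lay 14070 and 14010 bp after the TSS, in intergenic sequence beyond the gene. Btg2, an inhibitor of proliferation, had 23.1 and 14.8, and Rhob, a small GTPase, had 16.6 and 11.5, both with centres in the 3' UTR. The summits of Btg2 lay 3535 bp apart and those of Rhob 2664 bp apart, so the libraries did not place the maximum at the same position. Dusp1, a phosphatase of MAP kinases, was the widest transcript-end region at 10430 bp, with 22.2 and 11.8 and summits 7034 bp apart on either side of the gene.

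Other regions that contained a TSS lay at genes of varied function. Plin2, a coat protein of lipid droplets and a known PPAR target, had 18.1 and 15.1 (chr4:86663451-86673517). Its centre fell in exon 3 of 8, but both summits lay within 1 kb of the TSS, 601 and 648 bp after it. Kcna3, a potassium channel encoded by a single exon, had 23.4 and 17.6, with summits at -1116 and -1027 bp from its TSS. Hspa5, the main chaperone of the endoplasmic reticulum, had 19.5 and 14.0, with both summits within 1 kb of its TSS. Gpx1, a glutathione peroxidase, had the best rank of the transcript-end class, with 20.4 and 13.4, and its summits lay 3395 and 3522 bp after the TSS, beyond a transcript of 1263 bp. Cd14, the co-receptor for bacterial lipopolysaccharide, had 17.5 and 9.26, with both summits within 1 kb of its TSS. Zfp608, a zinc-finger gene, had 17.04 and 11.5, with both summits in the same kind of position. Mpeg1 had 13.7 and 10.7, and here both summits lay in the 3' UTR.

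In the transcript-end class, regions without a TSS inside numbered 298, with medians of 6.81 and 5.198. Among them, the noncoding transcript 2310001H17Rik had 18.96 and 13.4, with its centre 97 bp past the end. Pla1a, a phosphatidylserine-specific phospholipase, had 20.4 and 13.2, with its centre 850 bp past the end (chr16:38393756-38396778). C5ar1, the receptor of the complement fragment C5a, had 13.9 and 15.4 at 766 bp past the end, and its summits were 63 bp apart. Ace, the angiotensin-converting enzyme, had 13.9 and 12.3 at 373 bp past the end, with summits 42 bp apart. Tomm20, a receptor of mitochondrial protein import, had 15.7 and 9.82 at 845 bp past the end. Irf2bp2, a transcriptional corepressor, had 14.2 and 10.7, with its centre 18 bp before the end and both summits in the 3' UTR. The 3 genes C5ar1, Ace and Tomm20 thus had both summits in transcript-end sequence, as did 219 of the 307 (71.3%).

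Within the transcript-end window, centres did not gather at the end itself. Of 307, 33 lay in the 100 bp before it, 64 from 0 to 250 bp after it, 68 from 250 to 500 bp, 58 from 500 to 750 bp and 84 from 750 to 1000 bp. The last 250 bp of the window held more than any of the 3 preceding intervals of that length. The interval before the end is shorter than the others. In bins of 100 bp, its 33 lay within the range of 18 to 38 over the window. The centre also lay in a 3' UTR in 44 regions and in a coding exon in 5, so these would have joined other classes under another order. The host was a protein-coding gene for 263 of 307 (85.7%). Where the host was a coding gene, it also had the closest start of any coding gene in 153 of 263 cases (58.2%, 52.1% to 64.0%). The share was 80.2% for coding exons (72.3% to 86.2%) and 59.9% for 3' UTRs (53.3% to 66.2%).

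**Figure D3:**
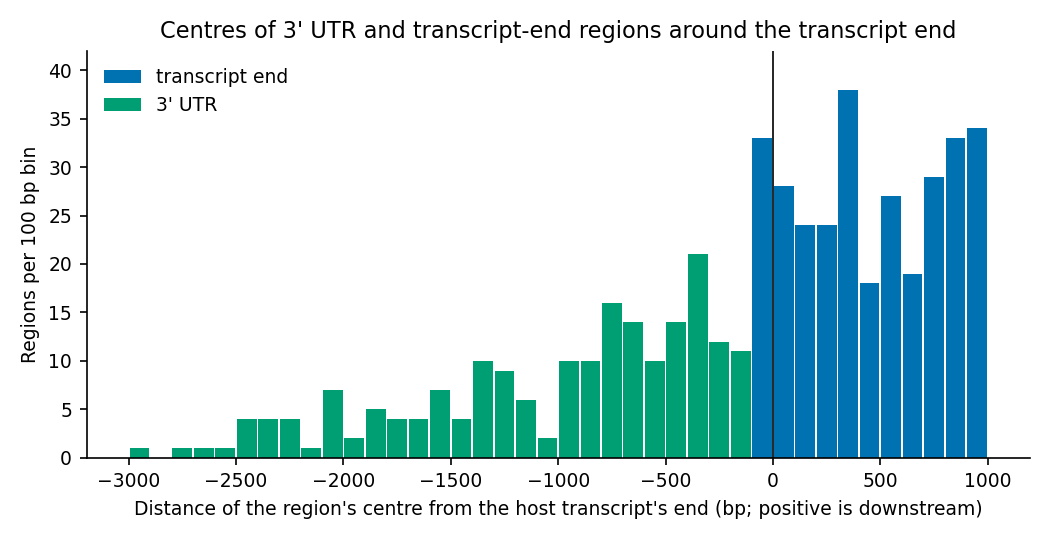
Distance of region centres from the end of the host transcript (x axis, bp, positive downstream) in 100 bp bins, for transcript-end regions and 3' UTR regions (y axis, regions per bin). The 22 3' UTR regions more than 3000 bp before the end are not drawn. Counts run from 18 to 38 per bin over the transcript-end window, with no single peak at the end. They fall from 33 to 11 where the class changes, 100 bp before the end. From there to 1000 bp before the end they run from 10 to 21, and they are at most 10 farther upstream. The lengths of 3' UTRs were not taken into account.

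In coding-exon regions centre and summit often parted. Only 47 of 126 had the library 1 summit in a coding exon (37.3%), and 59 had it in an intron (46.8%). In library 2 the counts were 59 in a coding exon and 51 in an intron. Both summits lay in one of the 4 classes in 44 of 126 (34.9%, 27.2% to 43.6%), against 207 of 217 (95.4%) for 3' UTRs, 246 of 307 (80.1%) for transcript ends and 4 of 15 (26.7%) for 5' UTRs. The median share of a coding-exon region that was exonic was 35.5%, and for 3' UTR regions it was 100%. The exons that held the centres had a median length of 194 bp, against 137 bp over all exons of protein-coding transcripts, and 34 of 126 (27.0%) were longer than 1 kb, against 6.35% of all exons. A long exon is more often met by a centre, and its part in these figures was not tested.

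**Figure D4:**
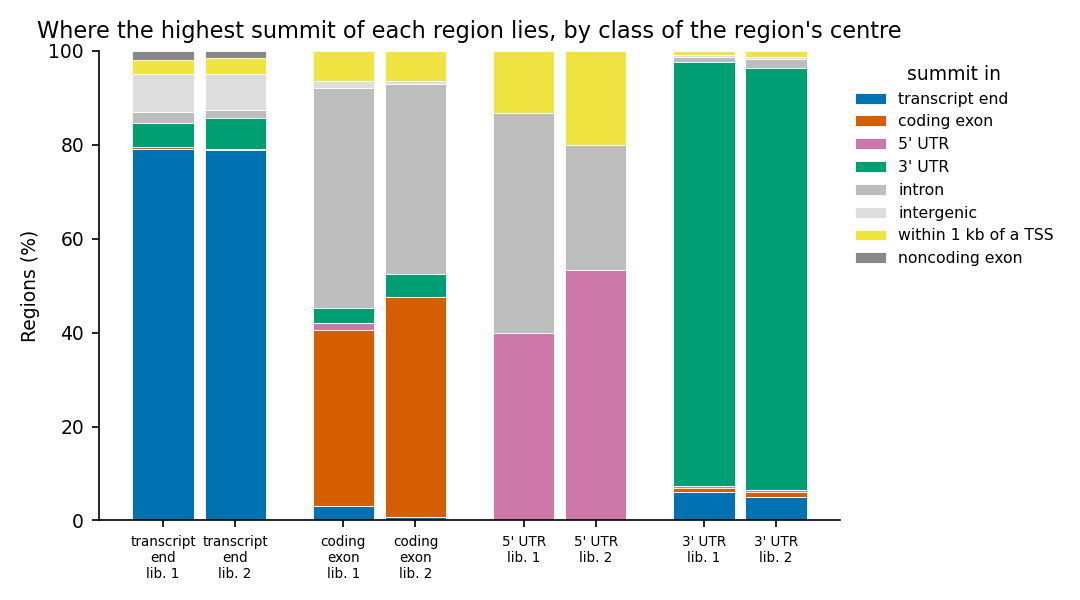
Location of the highest summit of each region (stacked shares in percent, y axis) for the 4 classes by centre, with library 1 and library 2 side by side. In 3' UTR regions 90.3% of library 1 summits stay in 3' UTR sequence, whereas in coding-exon regions 46.8% lie in introns.

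Among the 116 coding-exon regions without a TSS inside, the medians were 6.23 and 5.04. Adtrp, a hydrolase of fatty-acid esters of hydroxy fatty acids, had 16.0 and 12.1 around exon 2 of 7, with summits 22 bp apart in an intron (chr13:41827647-41828927). Clec1a, a C-type lectin receptor, had 16.9 and 10.9 around exon 3 of 6, also with both summits in introns. Itgax had 17.2 and 7.87, and its summits lay 8 bp apart in a coding exon. Prrt1 had 12.1 and 11.5 with both summits in coding sequence, and it hosted another 2 regions at its transcript end. Msr1, a scavenger receptor, had 8.29 and 4.79 in exon 5 of 10, with both summits in the coding exon.

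3' UTR regions, in contrast, kept to the annotated sequence. All 217 centres lay in the last exon of the host transcript, where 3' UTRs mostly lie, so this follows largely from the class definition. The class held in the transcript with the longest coding sequence of the host for 213 of 217 (98.2%), as for 122 of 126 coding-exon regions and 299 of 307 transcript-end regions, but for only 9 of 15 in 5' UTRs. The 3' UTRs that held a centre had a median length of 2173 bp, against 812 bp for the longest 3' UTR of each gene, and the centre lay a median of 908 bp before the transcript end. A longer UTR offers more sequence to a centre, and no correction was made for it. These regions had a median width of 578 bp, and coding-exon regions one of 723 bp around exons with a median of 194 bp. The contrast in summit and exonic shares was not separated from these lengths. Among the 211 without a TSS inside, medians were 6.22 and 5.07. Prkcq, a protein kinase C isoform, had 15.4 and 10.4 in the last of 18 exons (chr2:11299515-11300929). Btbd19 had 16.6 and 10.1, with summits 66 bp apart. Nfkbia, the inhibitor of NF-κB that is itself induced by NF-κB, had 13.9 and 14.3 (chr12:55487621-55492047), with both summits at its transcript end.

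Of the 15 regions in 5' UTRs, none contained a TSS and 8 reached a fold of 5 in both libraries. Pced1b had 12.4 and 12.6 in exon 5 of 6, more than 100 kb downstream of the host's TSS, at 126882 bp. Crlf2, a subunit of the TSLP receptor, had 18.7 and 7.87, and both summits lay in the adjoining intron. Acbd4, an acyl-CoA-binding protein, had 11.3 and 6.34, with both summits in the 5' UTR. H2-DMa, which loads peptides onto MHC class II, had 12.4 and 4.68, likewise with both summits in the 5' UTR. Abca9, an ABC transporter, had 8.89 and 7.59, and BC005537 had 11.6 and 7.03 with both summits within 1 kb of a TSS. Casp8, the initiator caspase of death receptors, had 5.63 and 7.03, and Grk2, a kinase of G protein-coupled receptors, had 5.33 and 8.70. Of the 8 regions named, those of Crlf2, BC005537, Acbd4, Casp8 and Grk2 lay within 2 kb of the host's TSS.

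The 665 regions were hosted by 557 genes, of which 475 hosted 1 region, 61 hosted 2 and 21 hosted 3 or more. Among protein-coding genes, 513 of 21000 (2.44%) hosted at least 1. Of these 513, 272 (53.0%, 48.7% to 57.3%) also had a consensus region centred within 1 kb of one of their own TSSs. The share was 21% over all protein-coding genes and 52.8% over the 2807 genes with a consensus region in an intron, which lies within the interval of the hosting genes. For 549 of the 665 (82.6%) the next consensus region was centred within 10 kb.

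Kctd12, an auxiliary subunit of GABA-B receptors encoded by a single exon, hosted the most, with 5 regions in its 3' UTR and 1 at its transcript end. Their fold enrichments ran from 3.26 to 7.70 in library 1 and from 3.96 to 5.63 in library 2. Itpripl2 and Klhl9, an adaptor of a ubiquitin ligase, each hosted 4. The genes with 3 were Axl, B3gnt7, Ccnl1, Cebpa, Cytip, Dtx4, Enpp1, Gpcpd1, Havcr2, Il17ra, Oprm1, Pdcd1lg2, Prrt1, Riok3, Rsrp1, Sowahc, Usp37 and Zfp703. Of these, Axl is a receptor for apoptotic cells, Havcr2 is the checkpoint receptor TIM-3, Pdcd1lg2 is the PD-1 ligand PD-L2, and Cytip regulates cell adhesion. They were picked as examples, and the share of immune genes among the hosts was not counted. Cebpa, the single-exon gene of C/EBPα, had 8.29 and 7.59 in its 3' UTR with both summits at the same base, and 5.92 and 4.79 as well as 7.70 and 4.79 at its transcript end. Riok3, a protein kinase, had none above 3.85 in library 1 or 5.35 in library 2. Usp37, which held one of the DR1 elements above, had 8.29 to 10.96 in library 1 and 4.50 to 8.42 in library 2.

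Gene groups relevant to AMs were then counted as hosts, from lists chosen with earlier results of these data known. Macrophage transcription factors stood highest, with 19 of 51 genes hosting a region (37.3%, 25.3% to 51.0%), against 2.44% of all protein-coding genes. Of the 51, 46 (90.2%) were also the nearest gene of some consensus region of any class, against 31.5% of all protein-coding genes. Whether hosting was particular to exons and transcript ends at these genes was not tested. The 19 hosts were Bhlhe40, Bhlhe41, Cebpa, Cebpd, Egr1, Egr2, Fos, Fosl2, Id2, Jun, Junb, Jund, Klf2, Klf4, Klf6, Mafg, Rela, Tfec and Zeb2. Together they hosted 23 regions, with medians of 7.11 and 6.19, and 15 of the 23 reached a fold of 5 in both libraries. A TSS lay inside 6 of the 23, those of Fos, Jun, Junb, Jund, Klf6 and Egr1. Outside the wide regions, Cebpd had 11.3 and 7.59 at its transcript end. Bhlhe40, a repressor needed for AM proliferation together with Bhlhe41, had 7.70 and 6.19 in its 3' UTR, and Bhlhe41 had 4.87 and 4.79 in its 3' UTR and 4.44 and 5.91 at its transcript end. Zeb2, a repressor linked to macrophage identity, had 6.52 and 3.87 in its 3' UTR. With summits required to lie within 100 bp of each other, 11 of the 51 genes hosted a region, and with a reciprocal overlap of 50%, 8 did. All host genes fell from 557 to 316 and 267 under these settings, so the smaller counts go with fewer regions in total.

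AM signature genes hosted regions in 8 of 40 cases (20%, 10.5% to 34.8%), namely Abcg1, Cd9, Chil3, Cxcl2, Ear1, Itgax, Lpl and Mmp8. Their 10 regions had medians of 4.36 in library 1 and 6.05 in library 2, against 6.52 and 5.09 over all 665, so that the list lay lower in library 1 and higher in library 2. Abcg1, an exporter of cholesterol, had 5.28 and 6.19 at its transcript end, with summits 25 bp apart, and 4.28 and 5.35 in its 3' UTR, with summits 14 bp apart. Lpl, the lipoprotein lipase, had 4.24 and 6.19 at its transcript end. Chil3, a chitinase-like protein of AMs, had 6.40 and 6.19 at 762 bp past its end. Cxcl2, a neutrophil chemokine, had 8.0 and 11.2, with its centre 43 bp before the end.

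Cytokine, chemokine and receptor genes hosted regions in 9 of 51 cases (17.6%, 9.57% to 30.3%). Csf2rb, the shared subunit of the receptors for GM-CSF, IL-3 and IL-5, had 12.7 and 5.41 at 648 bp past its end, and Csf2ra, the GM-CSF-specific subunit, had 4.09 and 4.79. Il17ra, a receptor of IL-17, had 12.4 and 5.91 in its 3' UTR (chr6:120482396-120483887). Tlr4, the receptor for lipopolysaccharide, had 6.81 and 5.91 in its 3' UTR, and Tnf had 4.74 and 5.99 at its transcript end. The remaining hosts of this group were Ccl3, Ccl9, Notch4 and Tnfaip3.

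Lysosome and uptake genes hosted regions in 6 of 41 cases (14.6%, 6.88% to 28.4%), with Axl highest at 10.6 and 9.54. That region contained the TSS of a neighbouring transcript, and both summits lay within 1 kb of it. Cd68, a lysosomal glycoprotein of macrophages, had 10.4 and 6.47, and Clec7a, the β-glucan receptor dectin-1, had 10.1 and 4.79. Fcgr2b, the inhibitory Fc receptor, had 7.11 and 7.59, and Msr1 and Neu1 were the remaining hosts.

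In the group of PPAR targets and lipid genes, 3 of 46 hosted a region (6.52%, 2.24% to 17.5%), with the share of 2.44% over all protein-coding genes inside the interval. Abcg1 and Lpl, which also hosted regions, were counted under the AM signature, and the share depends on that assignment. Beside Plin2, the hosts were Mgll, the lipase of monoacylglycerols, with 7.70 and 6.32 in its 3' UTR and summits 3 bp apart, and Lipa, the lysosomal acid lipase, with 5.28 and 4.52 in exon 2 of 10. Among cholesterol and sterol genes, 2 of 30 did, Scarb2 with 5.33 and 5.91 and Lrp1 with 4.44 and 3.502. In the same group of PPAR targets and lipid genes, 33 of 46 (71.7%) were the nearest gene of some consensus region, against 31.5% of all protein-coding genes (6618 of 21000).

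Among cell death and cell cycle genes, 3 of 35 hosted a region (8.57%, 2.96% to 22.4%), namely Casp8, Cdkn1b and Ccnd2. Among ribosomal protein and translation genes, 2 of 30 did (6.67%, 1.85% to 21.3%), namely Eif1 and Rplp0. The share over all protein-coding genes was 2.44%. Markers of other cells were also counted. Adipocyte markers hosted none of 16, lung epithelium markers none of 22 and neuron markers none of 22. The upper limits of these shares were 19.4%, 14.9% and 14.9%, above the 2.44% of all protein-coding genes, so nothing is read from these zeros. Lymphocyte markers hosted 1 of 21 (4.76%, 0.846% to 22.7%), Cd3d, a subunit of the T-cell receptor complex, with 10.96 and 5.35 in its 3' UTR. Granulocyte and monocyte markers hosted 3 of 24 (12.5%, 4.34% to 31.0%), Cd14, Cx3cr1 and Ltf. Over all consensus regions, 38 of 40 AM signature genes were the nearest gene of some region. The counts were 3 of 16 adipocyte markers, 6 of 22 lung epithelium markers, 4 of 21 lymphocyte markers, no neuron marker and 12 of 24 granulocyte and monocyte markers. The interval of the last share ran from 31.4% to 68.6%, with 31.5% for all protein-coding genes. The lists differ in gene length and count, and none of these shares was tested. Because the lists were chosen with earlier results of these data known, the counts are no independent check of the labelled cell type.

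Other elements were then searched around the summits of the 665 regions, again on both strands and in the same window. The PPAR half-site AGGTCA, which also forms part of any DR1, occurred in 17% (14.3% to 20%), with 11.3% and 11.4% in the windows 1 kb to either side and 14.9% over all consensus regions. The C/EBP element TTGCNNAA occurred in 14.0% (11.6% to 16.8%), against 7.07% and 7.52% in the flanks and 15.1% over all. The AP-1 element TGANTCA occurred in 8.87% (6.94% to 11.3%), against 3.91% and 4.81% in the flanks and 9.98% over all. The RUNX element AACCACA occurred in 9.47% (7.47% to 11.9%), against 5.56% and 5.11% in the flanks and 8.02% over all. In regions of library 2 alone it occurred in 6.12%. For each of PU.1, C/EBP, AP-1 and the PPAR half-site the interval at the summits lay above those of both flanks. The STAT element TTCNNNGAA went the other way, with 5.11% (3.68% to 7.06%) at the summits, against 6.47% and 7.22% in the flanks and 7.3% over all, with overlapping intervals at summits and flanks. The E-box CACGTG occurred in 3.01%, against 2.56% and 2.71% in the flanks and 4.33% over all. DR1 with up to 1 mismatch occurred in 0.902% of either flank, with intervals that overlapped that of the summits. Over all annotated features of the same 4 kinds its share ran from 0.282% to 0.497%. With up to 2 mismatches it occurred in 5.11% (3.68% to 7.06%) at the summits and in 4.57% over all consensus regions. The flanks had 3.16% and 2.86%, with intervals overlapping that of the summits, and the annotated features 2.69% to 2.9%. These differences were not tested.

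**Figure D5:**
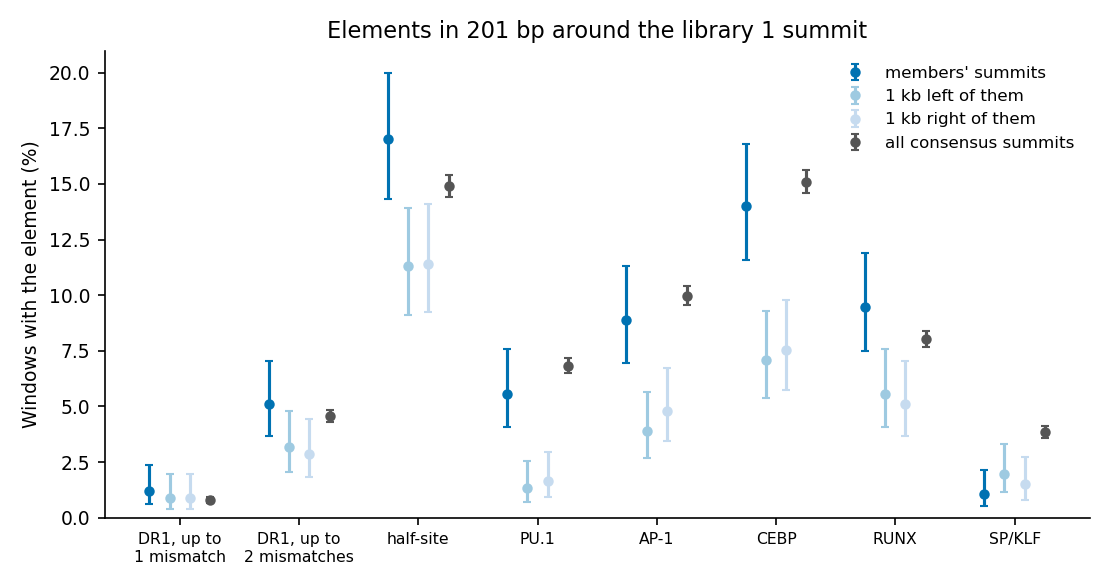
Share of windows reaching 100 bp to either side that hold each element (y axis, percent) at the summits of the 665 regions, in windows 1 kb to the left and right of these summits, and at the summits of all consensus regions. Bars are 95% Wilson intervals, which cover counting error only. The summits of the 665 regions stand above their flanks for PU.1 (5.56% against 1.35% and 1.65%), C/EBP, AP-1 and the half-site, and near all consensus regions for most elements.

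The GC-rich SP/KLF element GGGCGGGG occurred in 1.05% (0.511% to 2.16%) of the 665, against 3.85% (3.59% to 4.12%) of all consensus regions, of which those within 1 kb of a TSS had 11.5%. The rule used the distance from a TSS, so nothing is read from this gap. In introns the share was 1.1%. Among the classes, PU.1 occurred in 8.73% (4.94% to 15.0%) of coding-exon, 5.86% (3.74% to 9.08%) of transcript-end and 3.23% (1.57% to 6.51%) of 3' UTR summits, with overlapping intervals. Over all annotated features of the same kind more than 1 kb from a TSS, the PU.1 share ran from 1.29% to 1.44%. The median GC content around the summit was 47.0% in coding exons, 44.8% at transcript ends and 41.8% in 3' UTRs.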

How the data were processed

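Peak lists of the PPARγ HT-ChIPmentation libraries of AMs (n = 2) were used as deposited, and the inputs (n = 2) were not analysed here. Per the submitters' processing notes, MACS3, SAMtools, Bowtie2, cutadapt, CASAVA and bcl2fastq 2.20.0.422 were applied with mm10, and the authors called peaks per library against input. The deposited lists held 83787 and 28535 peaks, with largest q-values of 0.0497 and 0.0464. They give the fold enrichment (a ratio), a score, and −log10 of the p-value and q-value. The authors' fold was used as given, the −log10 q only for a stricter threshold, and the score not at all. Depth is unknown from the lists and could affect which weak peaks were called. Members, lists and elements were chosen with earlier results of these data known. Named genes were the 8 best-ranked per class, up to 8 with a DR1 of 1 mismatch, up to 6 per gene list (13 lists, 430 entries), those nearest the 1 kb limit, hosts of 3 or more regions and the widest per class. With 1 group of libraries there was no contrast and no test. Intervals are 95% and cover counting error only. Annotation and genome were RefSeq GRCm38.p6 and, as an alternative, GENCODE basic. Computations used Python 3.11.15 with numpy, pandas and scipy and were tested on simulated data. Alternatives varied the peak threshold, overlap, libraries, position, TSS distance, class order, annotation, window and gene of a region.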

Additional observations from a re-analysis of the deposited data

How the results depend on the processing

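The number of regions was 323 with a fold of at least 5 in both lists, 302 where each peak had to cover 50% of the other and 351 where the libraries' summits had to lie within 100 bp. Peaks of 1 library alone gave between 1029 (library 2) and 3621 (library 1). Under these settings the number of host genes was 303, 267 and 316, and 772 to 2284 with 1 library alone. The mean of both library medians of fold enrichment, 5.80, was 7.41 with a fold of at least 5 required, and 4.15 to 4.80 with 1 library alone. The DR1 share of 0 was 0.310% with a fold of at least 5 required, and became 1.203% with up to 1 mismatch and 5.11% with up to 2, and stayed at 0 around library 2 summits, in a narrower and a wider window and in each library alone. A q of at most 0.001 gave 584 regions, TSS distances of 500 bp and 3 kb gave 795 and 460, and GENCODE transcripts gave 836. Of the 665 regions, 579 remained under GENCODE and 561 under the mean summit position. Chosen after seeing the data, a requirement that both summits lie in the 4 classes kept 501 regions, 44 of them in coding exons, and leaving out regions that contain a TSS kept 640, with a mean of medians of 5.78. The cause was not tested. No paired analysis was possible because the inputs have no processed values here and the ChIP libraries form 1 group. Depth is unknown from the lists, which differ in length, so the absence of a region in either says only that no peak was called there.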
